A study of Homo sapiens with 3 samples.

Results

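Chromosome 7 carried 1342 of the 23641 peaks of 8-oxo-7,8-dihydro-2'-deoxyguanosine (8-oxodG) in the deposited list, or 5.68% of the peaks on 5.47% of the sequence. Its peaks were chosen by chromosome name alone, and the coordinates are those of hg18. The list came from MCF10A, an established line of breast epithelial cells that does not form tumours. The cells were labelled as arrested in G0, a state of rest in which they do not divide, and had been grown for 48 hours in medium with 5% horse serum. The labels do not say how the arrest was reached. Fragments of the cells' DNA that bound an anti-8-oxodG antibody were sequenced. There were 3 samples in 1 group from 2 experiments, with no second condition and no treatment, and 1 peak list stood for all of them. It gives no value per sample and no read depth, so replicate error is unknown for all values below, and no comparison could be tested over samples. The 95% intervals are exact ones that cover counting error only, and because neighbouring peaks gather in the same places they are narrower than the true uncertainty.

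8-oxodG forms when reactive oxygen species oxidise guanine, the base that gives up electrons most readily. The glycosylase OGG1 removes it opposite cytosine, and MUTYH removes the adenine that is often misplaced opposite it. Chromosome ends and Giemsa-negative bands, which stain lightly, tend to be rich in genes and in G and C, whereas dark bands, graded up to gpos100, the darkest class, tend to be rich in A and T and to replicate late. The regions set side by side here were 7p22 and 7q36, which are the outermost bands of the short and the long arm, 7p15.2, which holds the HOXA cluster of body-axis regulators, 7p11.2, which holds the epidermal growth factor receptor gene EGFR, and the 5 bands of 7q31, which hold common fragile sites, places where chromosomes break under replication stress. Regions were set by band name, and gene positions on hg18 were not checked. Whether the other regions hold fragile sites too was not checked either.

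Chromosome 7 as a whole stood near the middle of the chromosomes in density. It held 8.66 peaks per Mb of sequenced contig (95% interval 8.20 to 9.14), against 8.33 on the other 22 chromosomes (8.22 to 8.44), a ratio of 1.04 (0.983 to 1.10). This placed it at rank 10 of 23, between chromosome 10 (8.73) and chromosome 1 (8.43), and the intervals of these neighbours overlap. Peaks covered 0.467% of its sequence, against 0.449% elsewhere. The short arm had 8.73 peaks per Mb and the long arm 8.62, a ratio of 1.01 (0.905 to 1.132). The median pileup at the summit was 26 fragments on chromosome 7 (interval of the median 25 to 27), against 25 elsewhere. The median fold enrichment, which is the authors' own value for each peak, was 12.4 (11.9 to 12.8), against 11.7 (11.6 to 11.8), rank 3 of 23 chromosomes. The background at the summit, in fragments, which follows from pileup and fold, had a median of 0.944, against 1.01.

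The peaks were spread unevenly over the 44 bands of the chromosome. At least 2 times the median density of all bands (6.92 peaks per Mb) was reached by 7 of them, or 15.9%, against a background of 14.0% of the 826 bands in the genome. At most 0.5 times that median was found in 0 of the 44 bands, against 6.42% of all bands. Above the genome-wide median lay 24 bands. No minimum of sequence was set for these counts. The 7 dense bands include 7q11.1, with 1 peak in 0.0417 Mb, and 7p11.1, with 17 peaks in 0.658 Mb.

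**Figure D1:**
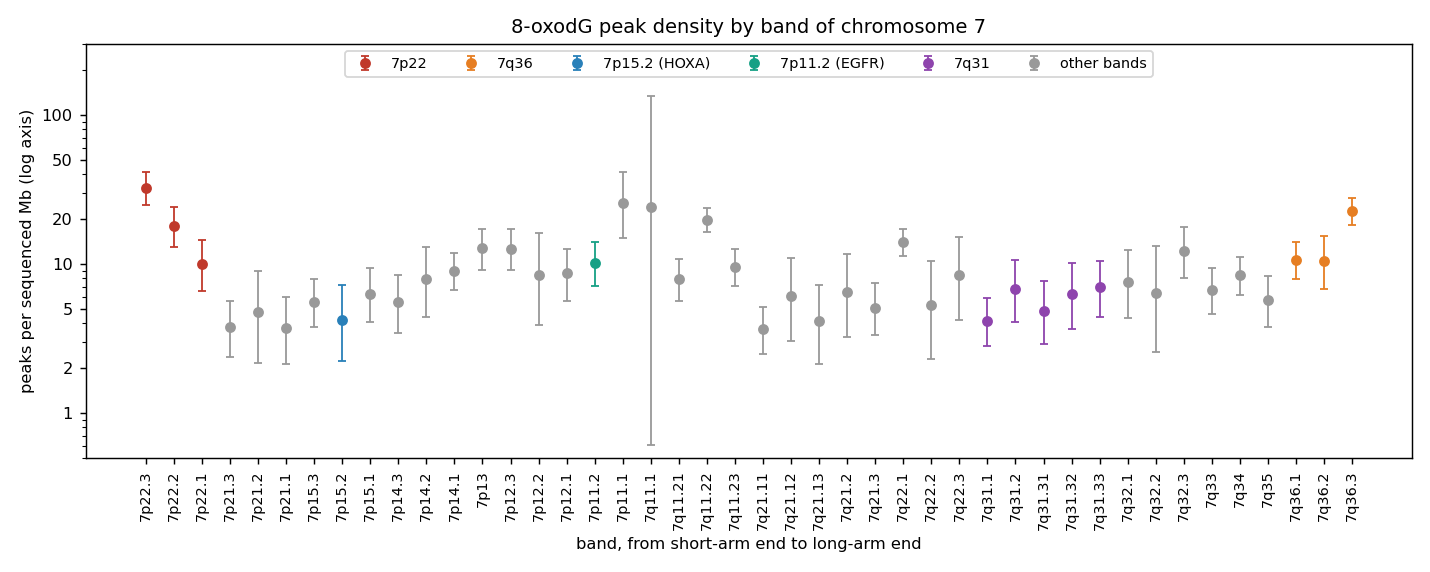
Peak density (peaks per sequenced Mb, log axis) in each of the 44 bands of chromosome 7, ordered from the short-arm end to the long-arm end. Bars are 95% Poisson intervals for the counts; density is high at both ends (32.4 in 7p22.3 and 22.8 in 7q36.3), low in 7p15.2 (4.19) and 7q31 (4.17 to 6.97), and high again in 7q11.22 (19.8).

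The short-arm end, 7p22, held 132 peaks in 7.02 Mb, or 18.81 per Mb (15.7 to 22.31). It is the band group of MAD1L1, which encodes a spindle checkpoint protein, and of ACTB and RAC1, which encode beta-actin and a small GTPase of the cytoskeleton. The rest of the chromosome outside 7p22 and 7q36 had 7.63 peaks per Mb (7.17 to 8.10), a ratio of 2.47 (2.04 to 2.96). More copies of a region in the library and more 8-oxodG per copy cannot be told apart in such a list. Density dropped in steps away from the end. It was 32.4 peaks per Mb in 7p22.3 (62 peaks, interval 24.8 to 41.5), 17.9 in 7p22.2 (43 peaks, 13.0 to 24.1) and 10 in 7p22.1 (27 peaks, 6.59 to 14.6). Each step was of similar size, with ratios of 1.81 (1.21 to 2.73) and 1.79 (1.08 to 3.02), and the innermost of the bands, 7p22.1, was 1.31 times the rest of the chromosome (0.860 to 1.92), an interval that includes 1. Among 41 terminal bands in the genome 7p22.3 ranked 1, and among 762 bands with at least 1 Mb of sequence it ranked 7. Without 7p22.3 the ratio of 7p22 to the rest of the chromosome was 1.80.

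At the opposite end, 7q36 held 167 peaks in 11.14 Mb, or 14.99 per Mb (12.8 to 17.4), a ratio of 1.97 to the rest of the chromosome (1.66 to 2.32). The outermost band, 7q36.3, which holds SHH, the gene of a signal that patterns limbs and the nervous system, supplied 92 of these peaks in 4.04 Mb, or 22.8 per Mb (18.4 to 27.9). It ranked 8 of the 41 terminal bands. The bands 7q36.2 (10.4) and 7q36.1 (10.6), the last of which holds EZH2, the histone methyltransferase of Polycomb repression, were alike. Together they were 1.39 times as dense as the rest of the chromosome (1.08 to 1.75), and 7q36.3 was 2.16 times as dense as they were (1.57 to 2.96). The ratio of 7q36 to the rest therefore depended on its last band, and without 7q36.3 it was 1.39. The short-arm end was 1.26 times as dense as the long-arm end (0.991 to 1.59), an interval that includes 1.

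Density was highest in the outer 2 Mb of both ends. Within 1 Mb of the short-arm end there were 36.8 peaks per Mb (24.8 to 52.5), and 30 in the next Mb (20.2 to 42.8). From 2 to 4 Mb the density was 16, from 4 to 6 Mb 16.5, and from 6 to 8 Mb 4.5 (2.06 to 8.54). It stayed between 2.5 and 5.1 from there to 30 Mb. From the long-arm end the density was 26.0 in the outermost Mb (17.0 to 38.1), 34.0 in the next (23.6 to 47.5) and 15.5 from 2 to 4 Mb. In bins of 2 Mb it was then between 11.5 and 13.0 out to 10 Mb, and 5.8 from 10 to 15 Mb. These bins may hide a dip. The windows of 1 Mb at 152 and 153 Mb had 7 and 5 peaks, or 7.0 and 5.55 per Mb, and those on either side, at 151 and 154 Mb, had 13 and 19 peaks. The counts of 7 and 5 are too low to set these windows apart from the 7.63 per Mb of the rest of the chromosome. The median background at the summit was 0.786 and 1.10 fragments in the outermost and the next Mb of the short arm, and 1.42 and 1.49 in those of the long arm.

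**Figure D2:**
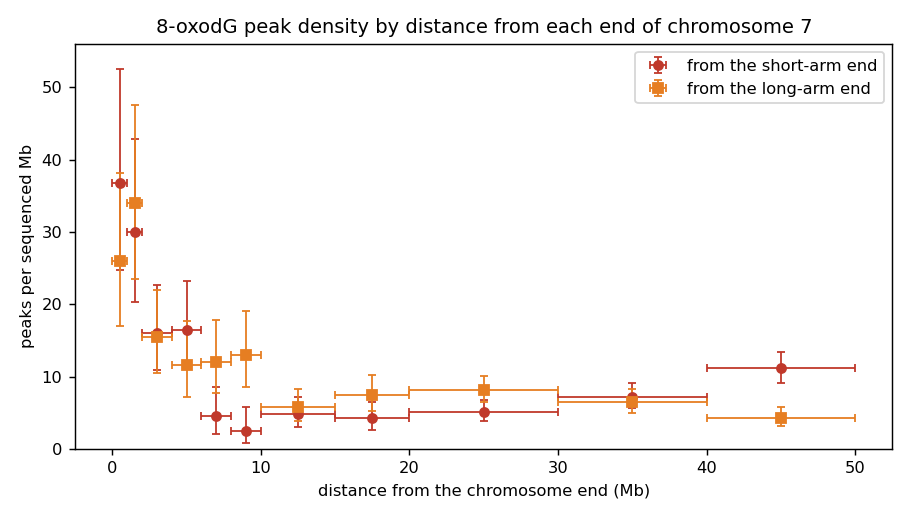
Peak density (peaks per sequenced Mb) by distance from each end of chromosome 7 in Mb. Horizontal bars span each bin and vertical bars are 95% Poisson intervals for the counts; both ends exceed 25 peaks per Mb in the outer 2 Mb, after which the short-arm series drops to 4.5 from 6 Mb and the long-arm series stays above 11 out to 10 Mb.

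The HOXA band 7p15.2 was among the sparsest of the short arm. It held 13 peaks in 3.1 Mb, or 4.19 per Mb (2.23 to 7.17), 0.544 times the other bands outside 7p22 and 7q36 (0.289 to 0.935). Only 7p21.1 (3.72) and 7p21.3 (3.77) had fewer per Mb on 7p among bands with at least 1 Mb of sequence. Its peaks were unevenly placed, with 11 of 13 before 27 Mb and none between 26754067 and 27224044. The following peak (27224045 to 27224475) had a pileup of 14 fragments and a fold enrichment of 8.11. The last (27373939 to 27374727) was the tallest and widest of the band, at 45 fragments and 789 bp, over a background of 4.09 and with a fold of 9.04. The highest fold, 23.2, belonged to a peak at 25972619 to 25973091 with 44 fragments over 0.944. No other peak of the band reached a fold of 20, and the median fold was 9.04 (8.11 to 12.5).

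The EGFR band 7p11.2 was neither dense nor sparse. It held 35 peaks in 3.45 Mb, or 10.1 per Mb (7.07 to 14.1), 1.34 times the other bands outside the ends (0.930 to 1.88), an interval that includes 1. It had 2.42 times the density of the HOXA band (1.25 to 4.98). Its peaks were tall, with a median pileup of 37 fragments (26 to 42). They lay in groups of 13 before and 22 after a stretch without a peak from 55240294 to 55814632. The tallest (54757482 to 54758173) had 122 fragments and a fold of 40.4. The next in height (54580442 to 54581735) had 113 fragments and a fold of 44.3. The highest fold, 47.3, was at 57278175 to 57279019, with 85 fragments. Side by side, separated by 154 bp, lay peaks at 55238200 to 55239127 and 55239282 to 55240293, with 39 and 42 fragments over backgrounds of 2.67 and 4.09.

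The fragile-site region 7q31 had few peaks for its length, though not in every part. Its 107 peaks in 19.7 Mb gave 5.43 per Mb (4.45 to 6.56), 0.680 times the other bands outside the ends (0.551 to 0.831). Its 5 bands had a mean density of 5.82 ± 1.24 (SD). The lowest was 7q31.1 (4.17, interval 2.81 to 5.95), a dark band of class gpos75, followed by 7q31.31 (4.87), 7q31.32 (6.30), 7q31.2 (6.79) and 7q31.33 (6.97), of which the last lay at 1.01 times the median band of the genome. Within 7q31.1 the window of 1 Mb from 108 Mb had 11 peaks, the most of 7q31, and each of the next 5 windows had 2 or 3. The longest stretch of 7q31 without a peak, 0.816 Mb from 111060000 to 111876105, was in this part. In 7q31.2, the band of MET, a receptor tyrosine kinase, of CFTR, the chloride channel of cystic fibrosis, and of the caveolin gene CAV1, the 19 peaks had pileups from 10 to 56 fragments. The tallest there (116377363 to 116377985) reached 56 fragments with a fold of 17.8. The tallest of all 7q31, at 107404259 to 107404926 in 7q31.1, had 89 fragments and a fold of 44.9.

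The contrast of the ends with the HOXA, EGFR and 7q31 bands was set with their densities known, so the ratios are a description and their intervals support no choice of regions. For 7p22 the ratio was 4.49 to 7p15.2 (2.54 to 8.65), 3.46 to 7q31 (2.66 to 4.51) and 1.86 to 7p11.2 (1.27 to 2.78). For 7q36 it was 3.57 to 7p15.2 (2.03 to 6.85), 2.76 to 7q31 (2.15 to 3.55) and 1.48 to 7p11.2 (1.02 to 2.19). The contrast with 7p11.2 (10.1 peaks per Mb) was not shared by the inner bands 7p22.1 (10), 7q36.1 (10.6) and 7q36.2 (10.4). Leaving out 1 band of the end gave ratios to 7p11.2 from 1.35 to 2.40 for 7p22 and from 1.04 to 1.79 for 7q36. With only peaks of at least median −log10 q counted, the ratio of 7q36 to 7p11.2 was 1.02. Counting peaks of at least median fold enrichment raised the ratio of 7p22 to 7p15.2 to 9.5, and counting those of at least median width raised the ratio to 7q31 to 7.06 for 7p22 and 5.001 for 7q36.

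Chromosome 7 also had dense bands far from its ends. The band 7q11.22, of the intermediate stain class gpos50 and the site of AUTS2, a very long gene of neural development, held 113 peaks in 5.7 Mb, or 19.8 per Mb (16.3 to 23.8). This was 2.80 times the other bands outside the ends (2.28 to 3.40) and 1.05 times 7p22 (0.812 to 1.37). The window of 1 Mb from 67 to 68 Mb in this band had 36 peaks, the most on the chromosome, and the windows at 66 and 70 Mb had 22 and 21. The band was uneven, as the windows at 68 and 69 Mb had 12 and 6. Which of these windows hold AUTS2 was not checked. The peaks of 7q11.22 were strongly enriched, with a median fold of 17.5 (13.8 to 20.1), and 46 of 113 (40.7%, interval 31.6 to 50.4) had a fold of at least 20. The median background there was 0.944 fragments, the same as over the whole chromosome. Next came 7q22.1 at 14.0 per Mb (11.3 to 17.2), with 26 peaks in the window at 98 Mb, then 7p13 at 12.7 (9.17 to 17.2) and 7p12.3 at 12.7 (9.04 to 17.2). Beside the centromere, 7p11.1 had 17 peaks in 0.658 Mb of sequence, or 25.8 per Mb (15.04 to 41.4), over a median background of 3.15 fragments, and 7q11.1 had 1 peak in 0.0417 Mb. The part of this high background in the density was not tested.

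Most of the sparsest bands with at least 1 Mb of sequence were dark. On the long arm they were 7q21.11 (3.64 peaks per Mb, class gpos100), 7q21.13 (4.14, gpos75) and 7q31.1. On the short arm 7p21.1 and 7p21.3, both gpos100, were lowest, followed by 7p15.2, of the intermediate class gpos50. The 3 gpos100 bands of the chromosome averaged 3.71 ± 0.0678 (SD), and the 10 gpos75 bands 6.68 ± 2.70. The small SD does not show that gpos100 bands are uniform, as the counting interval of each was far wider. These intervals were 2.39 to 5.66 in 7p21.3, 2.13 to 6.04 in 7p21.1 and 2.49 to 5.13 in 7q21.11. The 22 Giemsa-negative bands averaged 10.3 ± 6.27 and ranged from 4.74 to 32.4. Density did not fall steadily with stain. Pooled over sequence, the 3 bands of the lighter graded class gpos25 had 12.71 peaks per Mb and the 4 gpos50 bands 10.99. Of the 75 gpos25 peaks, 43 were in 7p22.2 and 25 in 7q36.2, and 113 of the 167 gpos50 peaks were in 7q11.22. Giemsa-negative bands had 10.3 pooled peaks per Mb and the gpos75 and gpos100 bands 5.59, a ratio of 1.85 (1.63 to 2.11). With 7p22 and 7q36 left out, an omission chosen after seeing the data, it was 1.56.

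Wide peaks were common at both ends. The median width was 546 bp in 7p22 (489 to 601) and 502 bp in 7q36 (458 to 572), against 448 bp in the rest (437 to 460) and 398 bp in 7q31 (375 to 432). Width of at least 1 kb was found in 19 of 132 peaks of 7p22 (14.4%, 8.89 to 21.6) and 25 of 167 of 7q36 (15%, 9.93 to 21.3), against 41 of 1043 in the rest (3.93%, 2.84 to 5.30). The ends thus held 44 of the 85 peaks of this width, of which 7q36.3 had 15 and 7p22.3 had 13. In 7q31 there were 0 of 107, which allows a share of up to 2.8%, and in 7p15.2 0 of 13, which allows up to 23.1%. The EGFR band had 5 of 35 (14.3%, 4.81 to 30.3).

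In fold enrichment the ends were unlike, and in height their intervals overlapped. The median pileup was 30 fragments in 7p22 (27 to 36) and 26 in 7q36 (23 to 30), against 25 in the rest (24 to 27) and 19 in 7q31 (17 to 22). The median fold enrichment was 14.1 in 7p22 (12.8 to 16.5) and 11.4 in 7q36 (10.2 to 12.1), against 12.4 in the rest (11.8 to 12.9). A fold of at least 20 was reached by 40 of 132 peaks in 7p22 (30.3%, 22.6 to 38.9) and 23 of 167 in 7q36 (13.8%, 8.94 to 19.9), against 241 of 1043 in the rest (23.1%, 20.6 to 25.8). The median background at the summit was 0.944 fragments in 7p22 (0.818 to 1.10) and 1.16 in 7q36 (0.944 to 1.38), against 0.944 in the rest. The median of 7p22 thus equalled that of the rest, and the interval of 7q36 just reached it. The spread differed, with an upper quartile of 1.573 in 7p22 and 1.887 in 7q36, against 1.258 in the rest. The lowest background of the list, 0.460, was found at 7.58% of the peaks of 7p22 and 4.19% of those of 7q36, against 3.45% in the rest. By band the median background was 1.415 in 7q36.3 (1.101 to 1.573), 0.975 in 7q36.1, 0.944 in 7q36.2 and 1.101 in 7p22.3 (0.723 to 1.415). Peaks were then weighted by the inverse of their band's median background. So weighted, the density ratio of 7q36 to the rest was 1.55 and that of 7p22 was 2.34. A pileup of at least 50 fragments was found in 33 of 132 peaks of 7p22 (25%, 17.9 to 33.3), 32 of 167 of 7q36 (19.2%, 13.5 to 26.0) and 6 of 107 peaks of 7q31 (5.61%, 2.09 to 11.8), against 179 of 1043 outside the ends (17.2%, 14.9 to 19.6).

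**Figure D3:**
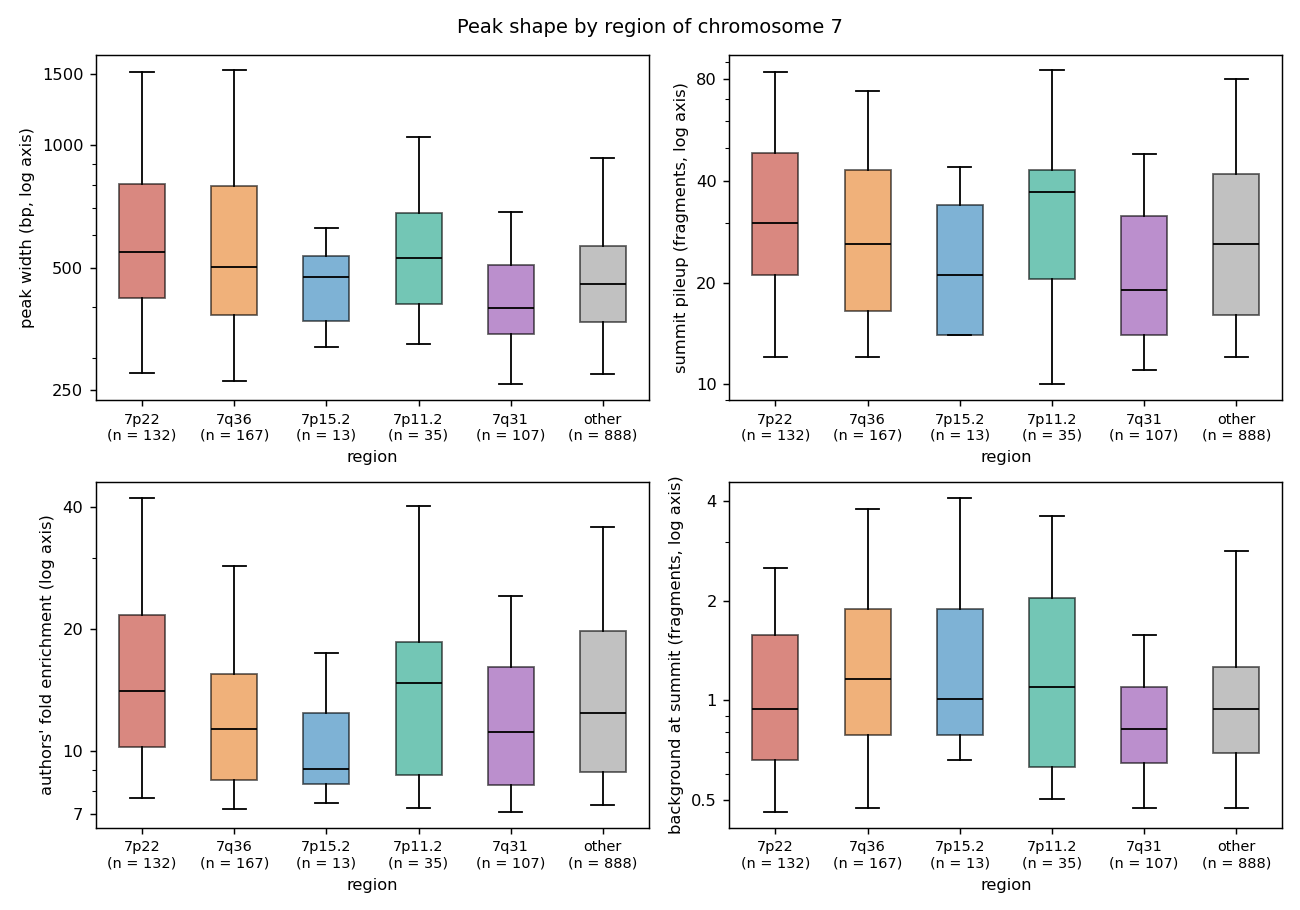
Width (bp), summit pileup (fragments), the authors' fold enrichment and background at the summit (fragments) of the peaks of 7p22, 7q36, the HOXA band 7p15.2, the EGFR band 7p11.2, 7q31 and the 888 peaks of the other bands, all on log axes. Boxes show quartiles and the median, and whiskers the 5th and 95th percentiles over peaks; 7p22 and 7q36 have the long upper tails in width, and 7q31 has low width and pileup.

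Across the 43 bands with at least 5 peaks, denser bands had taller peaks (Spearman's rho = 0.699 between density and median pileup), wider ones (0.550) and more background (0.546), and fold enrichment followed density less closely (0.362). These correlations are descriptions, since the bands share 1 library set, its depth and its base composition. The part of background in density was not tested. Over the 156 windows of 1 Mb with at least 50% sequence, which have fewer peaks each, rho between density and median background was 0.0947. Within the chromosome, taller peaks were wider (rho = 0.739 over 1342 peaks), and fold enrichment hardly followed background (0.0518).

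**Figure D4:**
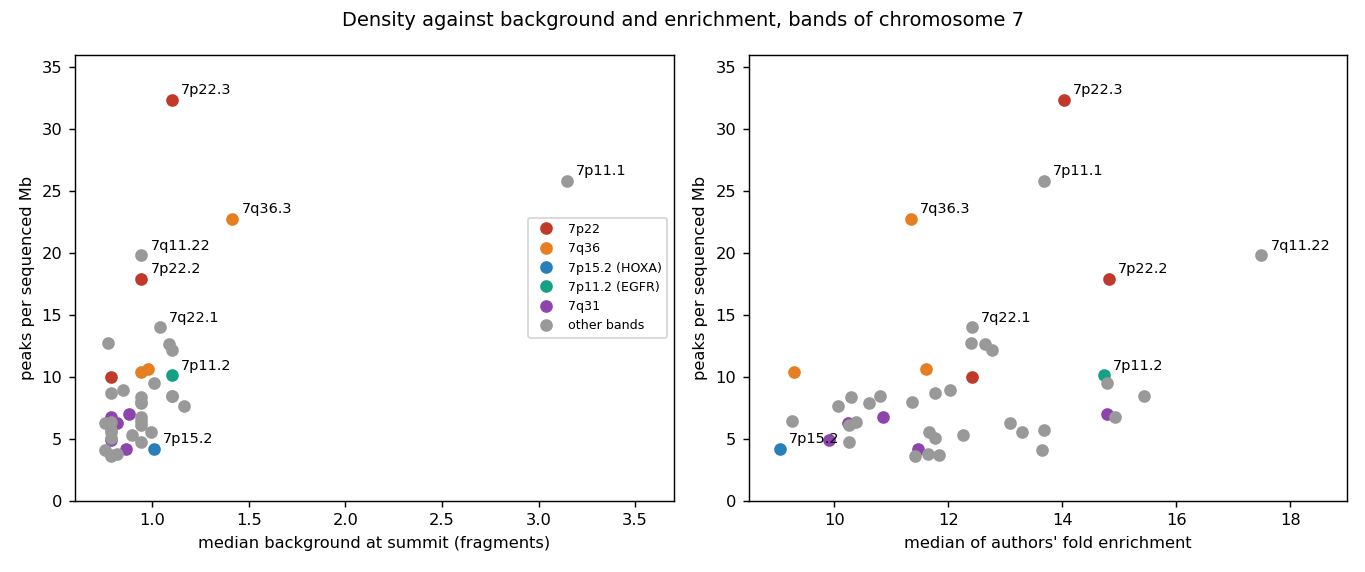
Peak density of each band of chromosome 7 with at least 5 peaks (peaks per sequenced Mb) against its median background at the summit in fragments (left) and its median fold enrichment as given by the authors (right). Points are bands, coloured by region; 7q11.22 (19.8 peaks per Mb, fold 17.5) and 7q36.3 (22.8, fold 11.3) are of like density but lie far apart in fold.

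The distance between neighbouring peaks largely restates density and is not a separate result. Neighbouring midpoints lay a median of 25910 bp apart in 7p22 and 38775 bp in 7q36, against 71030 bp in the rest of the chromosome. In 7q31 the median was 106395 bp, in the HOXA band 105143 bp and in the EGFR band 46900 bp. Gaps of at most 10 kb made up 24.6% of 130 neighbouring pairs in 7p22 and 22% of 164 in 7q36, against 14.2% in the rest. They were not limited to dense regions, since the HOXA band had 3 in 12 pairs (25%), the EGFR band 18.2% and 7q31 11.3%. The closest pair of the chromosome was separated by 61 bp, in 7p15.3 (21081811 to 21081873). Windows of 1 Mb averaged 8.60 ± 6.47 peaks (SD over 156 windows), and every window held at least 1. Those in 7p22 and 7q36 averaged 16.4 ± 8.57 (18 windows), against 7.59 ± 5.41 in the other 138. At least 15 peaks were found in 23 windows, of which 10 were in 7p22 or 7q36. After the window at 67 Mb in 7q11.22, the fullest were at 157 Mb in 7q36.3 (33 peaks), at 0 and 1 Mb in 7p22.3 (30 each) and at 98 Mb in 7q22.1 (26). The variance-to-mean ratio was 4.87 on chromosome 7, close to 4.86 over all chromosomes, and 3.85 with the windows of 7p22 and 7q36 set aside.

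The longest runs of sequence that lack a peak were mostly in dark bands too. The longest lay on the short arm, 1.42 Mb in 7p21.1 (17012577 to 18427437) and 1.17 Mb in 7p21.3 (8439664 to 9610744). They were followed by 0.999 Mb in 7q21.11 (81372588 to 82371327), 0.955 Mb across 7p15.3 and the HOXA band 7p15.2 (24820566 to 25775623) and the stretch in 7q31.1. The run across 7p15.3, a Giemsa-negative band, and 7p15.2, of class gpos50, was the exception. Mappability was not taken into account.

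Single peaks of high enrichment were found at the short-arm end and in the interior. The highest fold of the chromosome, 63.8, was at 883063 to 884056 in 7p22.3 with 101 fragments. It was followed by 59.9 at 52171879 to 52172812 in 7p12.1 with 106 fragments, and 59.2 at 4490379 to 4491359 in 7p22.2 with 142. The next had folds of 50.6 (4813401 to 4814434, 7p22.1) and 50.4 (66954943 to 66955687, 7q11.22). Of the top 20, 5 were in 7p22, which held 9.84% of the peaks of the chromosome, 4 in 7q11.22, which held 8.42%, and 0 in 7q36, which held 12.4%. In 7q36 the highest fold was 43.8 (157261349 to 157262635, 98 fragments) and the tallest peak had 99 fragments (155875106 to 155875849), both in 7q36.3.

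Height alone picked a different leader. The tallest peak of the chromosome, with 208 fragments, lay beside the centromere in 7q11.21 (61606139 to 61607198) over a background of 25.7 fragments, and its fold was 7.83. The next in height were the peak in 7p22.2, a peak of 134 fragments in 7p22.3 (1390414 to 1391198), one of 131 in 7p14.3 (33720466 to 33721316) and the tallest of the EGFR band. The widest was 3431 bp, in 7q32.3 (131896380 to 131899810), with 100 fragments and a fold of 48.1. It was followed by peaks of 2315 bp in 7q22.3 (106058145 to 106060459), 2306 bp (154819487 to 154821792) and 2263 bp (158266130 to 158268392) in 7q36.3, and 2262 bp in 7p13 (45084287 to 45086548). No peak of chromosome 7 reached 5 kb, a width found in 28 peaks elsewhere.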

How the data were processed

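Per the labels' protocols, DNA of 3 samples was immunoprecipitated with an antibody against 8-oxodG; the submitters' processing notes name BWA, SAMtools, bedtools and hg18. No source used here states the peak caller, its control or the pooling. Per the file headers, the deposited list gives each peak's width, its summit, a pileup signal there (in fragments), fold enrichment, and the −log10 of p and q. Decimal points of the last 3 were lost. Those of fold and p were restored from the Poisson relation of pileup, fold and p, which all 1342 chromosome 7 peaks met within 0.01. That of q was placed to give the largest −log10 q below −log10 p. On 1997 simulated rows 100% of fold, p and q values were returned, but q was computed from p there, so its return is a weak check. Over the chromosome 7 peaks −log10 q never fell as −log10 p rose. The background is (pileup + 1) / fold − 1. Bands came from circlize 0.4.16 and contigs from IRanges 2.36.0 (R 4.3.3); computations used Python 3.11.15, scipy 1.17.1, numpy 2.4.6, matplotlib 3.10.9 and pandas 2.3.3. Peaks were placed by midpoint. Intervals are Poisson (densities), Clopper-Pearson at 95% (shares, and ratios through the split of peaks) and order-statistic (medians); limits for a count of 0 take 3 counts. No test was run. Regions, bands and comparisons were chosen with earlier results of these data known. Named bands are those of the contrasted regions plus the 3 densest and 3 sparsest of each arm and those beside the centromere; named peaks lead a region or the chromosome in fold, pileup or width, except 1 further peak of 7p15.2, 3 of 7p11.2, 1 of 7q31.2, the closest pair and the band 7p12.3, chosen after their values were seen. Genes are named by band. No sequence is printed, as no hg18 genome was used here.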

Additional observations from a re-analysis of the deposited data

How the results depend on the processing

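All 10 density ratios kept their direction in all 111 alternative values, of which 81 lay within the counting interval and 30 outside; of 40 alternative medians 34 lay within. These totals include alternatives that changed nothing. Placing peaks by summit left every value as it was, and no chromosome 7 peak was 5 kb wide for that omission to act on. Leaving out centromeric and variable bands acted only on ratios to the rest of chromosome 7 or to the other chromosomes. No paired analysis was possible because the list combines the samples, so no replicate could be left out either. Counting peaks of at least median fold enrichment gave 1.119 for chromosome 7 over the others, 3.0 for 7p22 and 1.625 for 7q36 over the rest, 9.5 for 7p22 over 7p15.2 and 4.83 over 7q31, with median widths of 616 (7p22), 626.5 (7q36) and 472.5 bp (7q31) and median pileups of 40, 45 and 32.5 in the same order, as the filter itself favours tall peaks. At least median q gave 1.121 for chromosome 7, 3.202 for 7p22 over the rest, 6.017 over 7q31 and 1.016 for 7q36 over 7p11.2. At least median width gave 3.338 and 2.365 for 7p22 and 7q36 over the rest, 7.06 and 5.001 over 7q31, and 2.396 for light over dark bands. Covered bases gave 3.275 and 2.543, 5.335 and 4.141, and 2.303 for the same. Weighting by the inverse of band background gave 1.104 for chromosome 7, 1.545 for 7q36 over the rest, 1.962 over 7q31 and 1.545 for light over dark bands. Unweighted and without 7p22 and 7q36, light over dark bands was 1.561. With 1 band left out, 7p22 over the rest ranged from 1.8 to 3.191 and over 7q31 had a lowest value of 2.527, and 7q36 over the rest ranged from 1.385 to 2.382 and over 7q31 had a lowest value of 1.945. Beyond these constructions the cause was not tested. Depth is unknown, and low counts limit 7p15.2 (13 peaks) most.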
